A study of Homo sapiens with 4 samples.

Results

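Heat shock proteins, their cochaperones and the subunits of the CCT chaperonin, 37 genes chosen by name, were followed through the response of 2 gastric cancer cell lines to periplocymarin. All 37 symbols were found once each among the 62710 genes of the deposited table. Periplocymarin is a cardiac glycoside, a plant steroid that blocks the sodium pump. The groups were HGC27 cells given 0.3 µM periplocymarin for 24 h, HGC27 cells given 0.1% DMSO, MKN45 cells given 0.3 µM periplocymarin for 24 h and MKN45 cells given 0.1% DMSO. Both are human lines, HGC27 undifferentiated and MKN45 poorly differentiated, and all groups shared the same serum-containing RPMI-1640 medium. Each group had 1 RNA sequencing library. Nothing within a line can therefore be set against replicates, and tests over both lines measure the spread between the lines.

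Chaperones bind unfolded protein and release it for folding through cycles of ATP use. HSP70 proteins work with HSP40 (DNAJ) partners that bring clients and with exchange factors that reset the cycle, and they hand some clients to HSP90 through the adaptor STIP1. CCT is a closed barrel of different subunits that folds actin and tubulin, and HSP60 with its lid HSP10 does similar work inside mitochondria. The transcription factor HSF1 raises many of these genes under proteotoxic stress, through repeats of a short element in their promoters. Not every member is cytosolic, since HSPA9, HSPD1 and HSPE1 are mitochondrial, and SERPINH1, the collagen chaperone, resides in the endoplasmic reticulum.

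Values are FPKM, reads scaled by gene length and library size. Whole reads recovered from them came to 24939873 for treated HGC27, 26874718 for vehicle HGC27, 27709094 for treated MKN45 and 36614966 for vehicle MKN45. The members took 1.30%, 1.40%, 1.21% and 1.17% of those reads in the same order. Genes encoded in the mitochondrion took 3.38%, 6.89%, 5.10% and 11.1%, lower in the treated library of each line, and results with these genes left out are given where they differ. MKN45 held epithelial KRT18 at 1120 FPKM (treated) and 581 FPKM (vehicle), EPCAM at 448 and 268 FPKM and CDH1 at 113 and 127 FPKM. HGC27 libraries were near 0 for all 5 epithelial markers examined (at most 0.210 FPKM) and held VIM at 380 FPKM (treated) and 406 FPKM (vehicle). Of the other mesenchymal markers examined, FN1 was low in HGC27, at 2.45 FPKM (treated) and 2.63 FPKM (vehicle). CDH2 was near 0 there, at 0 FPKM (treated) and 0.0433 FPKM (vehicle). The markers PTPRC, PECAM1 and ALB of other cell types were at most 0.0221 FPKM in every library, and DES at most 0.336 FPKM.

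A difference within a line is log2(FPKM + 1) in the treated library minus that in the vehicle library, a scale that understates low genes. It was taken for genes whose mean in that line reached 1 FPKM, and one of at least 1 is called 2-fold. Rose and fell describe only genes past a test over both lines (limma with cell line as a block, Benjamini-Hochberg adjusted p under 0.05 over all 12374 genes tested), and a value after ± is its moderated standard error. That test has 1 residual degree of freedom per gene and takes most of its spread from other genes. With no filter on low values, or with cell line left out of the model, no gene passed, although 4306 and 695 genes had an unadjusted p under 0.05.

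Of the 36 members tested, HSPA4 rose, HSPA8 fell and 34 did not pass. CRYAB was too low to be tested. The members' shares were 2.78% in each direction, against 3.49% of all tested genes that rose and 3.29% that fell. In HGC27, 3 of 35 measured members (8.57%) were at least 2-fold higher, HSPA4, DNAJA1 and FKBP4, and HSPA8 (2.86%) was at least 2-fold lower, against 9.72% and 10.4% of 11821 measured genes. In MKN45, 4 of 36 (11.1%) were at least 2-fold higher, HSPA4, HSPA4L, CHORDC1 and HSF2, and 4 (11.1%) at least 2-fold lower, HSPA8, DNAJB1, HSPB1 and SERPINH1, against 8.21% and 8.94% of 11895 genes. None of these shares stands far above that of all genes. Signs matched in both lines for 26 members, 22 above 0 and 4 below, and were opposite for 10. Of all 12374 genes tested, 4678 were above 0 in both lines, 3889 below 0 in both and 3807 neither. Members were thus more often above 0 in both lines, and less often below 0 in both, than all genes. Of the 4454 genes averaging 10 FPKM or more, 2636 were above 0 in both, 661 below 0 in both and 1157 neither. That split is nearer the one of the members.

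The median difference of the members was 0.45 in HGC27, against 0.11 over all measured genes, and 0.24 in MKN45, against 0.07. Most members are abundant, and abundant genes stood higher as a whole: with a mean of 10 FPKM or more the median was 0.42 for 29 members and 0.48 for 4181 genes in HGC27, and 0.27 for 29 members and 0.35 for 4390 genes in MKN45. Among these abundant genes, 79.3% of members and 76.7% of all genes were above 0 in HGC27, and 72.4% and 70.8% in MKN45. Scaling libraries to their read totals alone moved the median of all genes by -0.30 in HGC27 and -0.19 in MKN45, and leaving out mitochondrially encoded genes by -0.35 and -0.27, so small upward differences below depend on the authors' scaling.

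**Figure D1:**
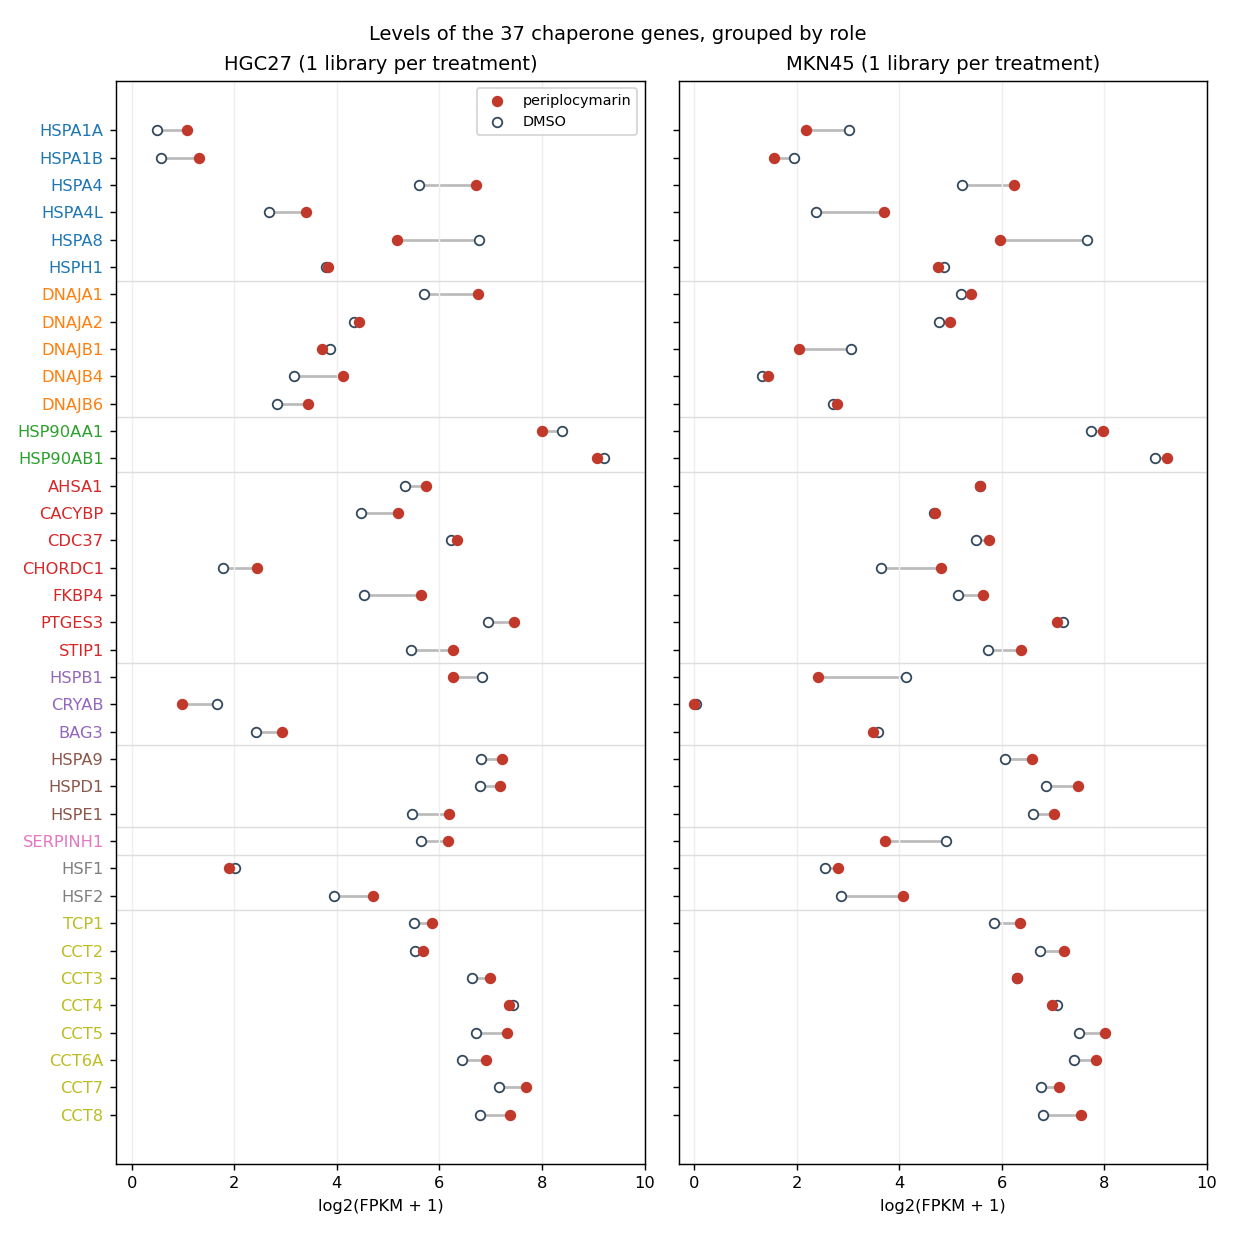
Levels of the 37 chaperone genes as log2(FPKM + 1) on the horizontal axis, HGC27 on the left and MKN45 on the right, with filled red points for the periplocymarin library and open points for the DMSO library (1 library each). Rows and label colours group the genes by role, from HSP70 and HSP110 at the top to the CCT subunits. HSPA8 lies to the left of its vehicle in both lines and HSPA4 to the right, HSP90AB1 has the highest level in each library, and CRYAB is close to 0 in MKN45.

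The HSP70 group held the members past the test, and they moved in opposite directions. HSPA8 is the constitutive cytosolic HSP70, which folds new proteins and strips clathrin from vesicles. HSPA4, a member of the HSP110 branch, is an exchange factor for HSP70. HSPA8 lies on chromosome 11 from 123057489 to 123063230 (minus strand, GRCh38, GENCODE 29), and HSPA4 on chromosome 5 from 133051962 to 133106449 (plus strand). Each overlaps another gene model on its own strand, the small nucleolar RNAs SNORD14C, SNORD14D and SNORD14E in HSPA8 and a provisional transcript model in HSPA4.

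HSPA8 was at 34.9 FPKM in treated HGC27, against 108 FPKM in vehicle HGC27, and at 61.0 FPKM in treated MKN45, against 201 FPKM in vehicle MKN45. Both treated libraries lay below both vehicle libraries. This is 3.09-fold lower in HGC27 and 3.29-fold lower in MKN45. Counting intervals of the log2 ratio (exact Clopper-Pearson, 95%, counting error only) ran between -1.68 and -1.58 in HGC27 and between -1.75 and -1.68 in MKN45. Over both lines HSPA8 fell by 1.65 ± 0.27 on the log2 scale (limma, adjusted p = 0.0230). Its rank among all genes was lower in both treated libraries. By level it ranked 1365th of all genes in treated HGC27 and 207th in vehicle HGC27, and 751st in treated MKN45 and 128th in vehicle MKN45. In bulk libraries, less RNA per cell and fewer cells carrying it cannot be told apart. The 17 pseudogenes named after HSPA8 held 0.133% as many reads as HSPA8 itself.

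HSPA4 was at 104 FPKM in treated HGC27, against 47.8 FPKM in vehicle HGC27, and at 74.5 FPKM in treated MKN45, against 36.5 FPKM in vehicle MKN45. Both treated libraries lay above both vehicle libraries, 2.18-fold in HGC27 and 2.04-fold in MKN45. HSPA4 rose by 1.06 ± 0.27 (limma, adjusted p = 0.0484). It stayed above 0 but missed the threshold with library totals alone (0.78, adjusted p = 0.0670), with mitochondrially encoded genes left out (0.70, adjusted p = 0.101) and with quantile normalization (0.60, adjusted p = 0.173). The ratio of HSPA8 to HSPA4 in FPKM was 0.335 in treated and 2.26 in vehicle HGC27, and 0.819 in treated and 5.49 in vehicle MKN45.

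Upstream sequences are shown for the member that fell, the member that rose, and a pair of members short of the threshold in opposite directions, CHORDC1 and HSPB1. HSPA4L and HSF2 lay nearer the threshold than CHORDC1 (limma, adjusted p = 0.0648, 0.0661 and 0.0803) and are not shown. Each is the 250 bases before a RefSeq transcript start (GRCh38.p14), 5′ to 3′ on the gene's strand, and other starts exist for some of these genes. Capitals mark heat shock element letters, the dimers GAANNTTC and TTCNNGAA and the trimers GAANNTTCNNGAA and TTCNNGAANNTTC that contain them. Each dimer reads the same on both strands and the trimers are reverse complements of each other.
HSPA8, chr11:123062137-123062386, minus strand: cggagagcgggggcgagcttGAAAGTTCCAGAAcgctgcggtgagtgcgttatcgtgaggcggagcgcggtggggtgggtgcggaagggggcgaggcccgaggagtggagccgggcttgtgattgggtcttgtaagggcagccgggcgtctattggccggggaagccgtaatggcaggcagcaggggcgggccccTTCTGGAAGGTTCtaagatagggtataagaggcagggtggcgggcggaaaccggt
HSPA4, chr5:133051763-133052012, plus strand: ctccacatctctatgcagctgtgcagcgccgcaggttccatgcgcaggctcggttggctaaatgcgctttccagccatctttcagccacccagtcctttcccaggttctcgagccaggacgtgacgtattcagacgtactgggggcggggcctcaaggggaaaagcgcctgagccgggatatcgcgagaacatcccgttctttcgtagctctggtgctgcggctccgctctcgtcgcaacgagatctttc
CHORDC1, chr11:90223050-90223299, minus strand: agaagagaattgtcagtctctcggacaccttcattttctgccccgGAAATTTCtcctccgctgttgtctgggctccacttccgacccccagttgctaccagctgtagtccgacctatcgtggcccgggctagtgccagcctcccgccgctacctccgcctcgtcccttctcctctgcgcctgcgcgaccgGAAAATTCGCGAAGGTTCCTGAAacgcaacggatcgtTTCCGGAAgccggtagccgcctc
HSPB1, chr7:76302423-76302672, plus strand: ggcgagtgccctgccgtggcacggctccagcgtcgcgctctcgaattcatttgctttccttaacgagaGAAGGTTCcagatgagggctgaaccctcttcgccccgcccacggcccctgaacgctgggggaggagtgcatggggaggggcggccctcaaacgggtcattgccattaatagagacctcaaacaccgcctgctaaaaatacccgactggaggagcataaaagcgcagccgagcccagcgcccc

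HSPA8 held a trimer in each orientation, with dimers starting 230, 225, 55 and 50 bases before the start, while the HSPA4 window held none of these letters. The HSPA8 and CHORDC1 windows lie inside the GENCODE models of these genes, which start further upstream, and the HSPA4 and HSPB1 windows run partly into theirs. CHORDC1 held 6 dimers, 4 of them in 1 overlapping run, and HSPB1 held 1, starting 182 bases before the start. Of the members not shown, HSPA4L held 1 dimer, in 1 of its windows, and the HSF2 windows held none. RefSeq windows were matched for 33 of the 37 members. A dimer was present in 16 of those 33, against 14.0% of 27305 symbols in the same table, and a trimer in 7 of 33 (CHORDC1, DNAJB6, HSP90AA1, HSP90AB1, HSPA8, HSPD1 and SERPINH1), against 0.557%. Several members are known targets of HSF1, so the shares describe the set. The 7 with a trimer ran from HSPA8 to CHORDC1, that is from -1.65 to 0.92 as fitted log2 differences, 4 above and 3 below 0, with a median of 0.04. The 16 with any dimer, these 7 included, had a median of 0.24, with 10 above 0, and the 17 with no dimer a median of 0.37, with 15 above 0. A match is a description of letters, and factor binding was not measured.

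The stress-inducible HSP70 genes, HSPA1A and HSPA1B, which lie side by side on chromosome 6, were low in every library. HSPA1A was at 1.11 FPKM in treated HGC27, against 0.413 FPKM in vehicle HGC27, and at 3.51 FPKM in treated MKN45, against 7.13 FPKM in vehicle MKN45. HSPA1B was at 1.48 FPKM in treated HGC27, against 0.493 FPKM in vehicle HGC27, and at 1.93 FPKM in treated MKN45, against 2.88 FPKM in vehicle MKN45. Both were therefore higher in treated HGC27, on 32 to 88 recovered reads, and lower in treated MKN45, on 116 to 632 reads. Counting intervals of the log2 ratio excluded 0, at 0.80 to 2.09 for HSPA1A and 1.04 to 2.17 for HSPA1B in HGC27, and at -1.26 to -0.79 and -0.90 to -0.25 in MKN45. Neither reached a mean of 1 FPKM in HGC27, and neither passed the test over both lines. Their coding sequences are near-identical, so reads may be lost or misassigned between them and each value is uncertain.

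HSPA4L, a relative of HSPA4, was at 9.56 FPKM in treated HGC27, against 5.36 FPKM in vehicle HGC27, and at 12.0 FPKM in treated MKN45, against 4.16 FPKM in vehicle MKN45. Its fitted difference of 1.03 ± 0.30 missed the threshold (limma, adjusted p = 0.0648), and it passed with a pseudocount of 0.1 (adjusted p = 0.0498) and with limma-voom on recovered reads (adjusted p = 0.0330). It was smaller and did not pass with quantile normalization (0.96), with library totals alone (0.78) or with mitochondrially encoded genes left out (0.72). HSPH1, the remaining HSP110 member, had a fitted difference of -0.04 ± 0.28 (limma, adjusted p = 0.948). It stood at 13.2 FPKM in treated and 12.8 FPKM in vehicle HGC27, and at 26.1 FPKM in treated and 28.3 FPKM in vehicle MKN45. The HSP110 branch thus held 1 member past the test, 1 just outside it and 1 with an estimate near 0.

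**Figure D2:**
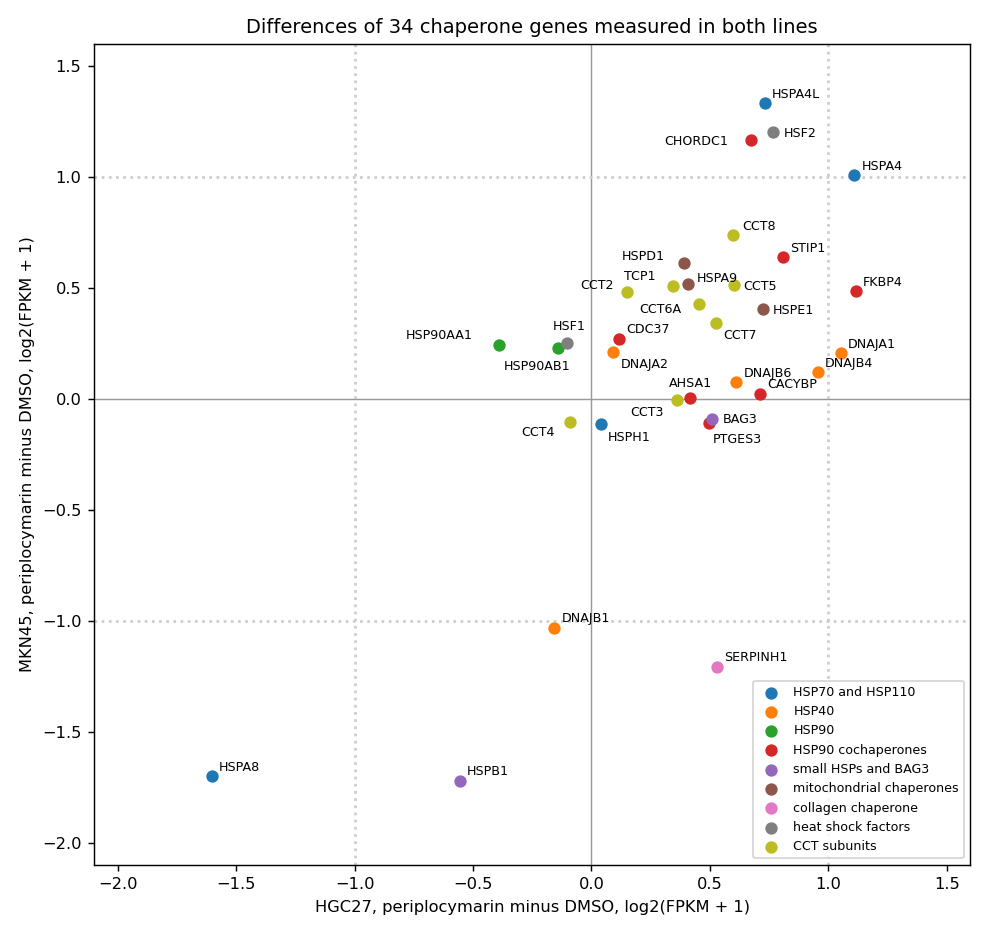
Treated minus vehicle differences of 34 chaperone genes measured in both lines, on the log2(FPKM + 1) scale, HGC27 on the horizontal and MKN45 on the vertical axis, coloured by role. Dotted lines mark 2-fold. HSPA8 stands alone past 2-fold lower in both lines and HSPA4 alone past 2-fold higher in both, while SERPINH1 is above 0 in HGC27 and below 0 in MKN45. With quantile normalization SERPINH1 is at -0.07 in HGC27, and HSPA4 is short of 2-fold in each line with library totals alone or quantile normalization.

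HSP40 genes encode J-domain proteins that stimulate the ATPase of HSP70. None of the 5 members passed the test, and the fitted differences ran from -0.59 for DNAJB1 to 0.63 for DNAJA1. DNAJA1, a cytosolic class A HSP40, was at 106 FPKM in treated HGC27, against 50.7 FPKM in vehicle HGC27, and at 41.2 FPKM in treated MKN45, against 35.6 FPKM in vehicle MKN45. DNAJB4 was at 16.4 FPKM in treated HGC27, against 7.996 FPKM in vehicle HGC27, and at 1.71 and 1.495 FPKM in treated and vehicle MKN45. Both differences were therefore larger in HGC27, at 1.05 and 0.96, than in MKN45, at 0.21 and 0.12. With library totals alone the MKN45 differences were -0.01 and -0.02. DNAJB1, the HSP40 best known as an HSF1 target, was at 12.0 FPKM in treated HGC27, against 13.5 FPKM in vehicle HGC27, and at 3.10 FPKM in treated MKN45, against 7.38 FPKM in vehicle MKN45. It was the HSP40 gene below 0 in both lines, under every scaling tried. DNAJA2 and DNAJB6, the other two, had fitted differences of 0.15 and 0.34. The scaling set the sign for DNAJA2, which was at -0.12 with library totals alone.

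HSP90 is the chaperone of kinases and steroid receptors, and HSP90AB1 was the most abundant member in every library. HSP90AB1, the constitutive form, was at 538 FPKM in treated HGC27, against 594 FPKM in vehicle HGC27, and at 591 FPKM in treated MKN45, against 504 FPKM in vehicle MKN45. HSP90AA1, the inducible form, was at 255 FPKM in treated HGC27, against 334 FPKM in vehicle HGC27, and at 250.2 FPKM in treated MKN45, against 211 FPKM in vehicle MKN45. Both were lower in treated HGC27 and higher in treated MKN45, by at most 0.39 on the log2 scale with the deposited scaling. Under the other scalings the HGC27 differences lay further below 0, from -0.89 to -0.73 for HSP90AA1 and from -0.54 to -0.42 for HSP90AB1. The MKN45 differences turned below 0 once mitochondrially encoded genes were left out of the totals, at -0.07 for HSP90AA1 and -0.09 for HSP90AB1. Fitted differences over both lines were -0.07 ± 0.28 and 0.04 ± 0.26.

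HSP90 works through cochaperones, of which 7 were members. None passed the test. All 7 had fitted differences above 0 on the deposited scale, from 0.19 to 0.92, and 4 of them turned below 0 with quantile normalization. CHORDC1, an HSP90-binding protein, was at 4.44 FPKM in treated HGC27, against 2.42 FPKM in vehicle HGC27, and at 27.2 FPKM in treated MKN45, against 11.5 FPKM in vehicle MKN45. FKBP4, an immunophilin of steroid receptor complexes, was at 48.9 FPKM in treated HGC27, against 22.0 FPKM in vehicle HGC27, and at 48.5 FPKM in treated MKN45, against 34.4 FPKM in vehicle MKN45. STIP1, the adaptor between HSP70 and HSP90, was at 75.8 FPKM in treated HGC27, against 42.8 FPKM in vehicle HGC27, and at 81.5 FPKM in treated MKN45, against 51.9 FPKM in vehicle MKN45.

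These 3 cochaperones were higher in the treated library of both lines under every scaling tried, though with smaller fitted differences under the other scalings. Their fitted differences were 0.92 ± 0.29 for CHORDC1, 0.80 ± 0.29 for FKBP4 and 0.72 ± 0.27 for STIP1 (limma, adjusted p = 0.0803, 0.111 and 0.118). With quantile normalization CHORDC1 was at 0.86, FKBP4 at 0.37 and STIP1 at 0.24. With mitochondrially encoded genes left out they were at 0.62, 0.45 and 0.37. CHORDC1 passed with limma-voom on recovered reads (adjusted p = 0.0371) and FKBP4 with a floor of 10 FPKM (adjusted p = 0.0386). The remaining 4 were smaller. CACYBP, a partner of the ubiquitin ligase machinery, had a fitted difference of 0.37, AHSA1, the activator of the HSP90 ATPase, 0.21, CDC37, the kinase adaptor, 0.19, and PTGES3, the p23 cochaperone, 0.19. With quantile normalization these 4 were at -0.04, -0.25, -0.30 and -0.22.

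The small heat shock proteins hold unfolded protein without using ATP. HSPB1 was at 76.3 FPKM in treated HGC27, against 113 FPKM in vehicle HGC27, and at 4.34 FPKM in treated MKN45, against 16.6 FPKM in vehicle MKN45. Each treated library lay below its own vehicle, with differences of -0.56 in HGC27 and -1.72 in MKN45. The vehicle libraries of the lines were 6.79-fold apart. The fitted difference of -1.14 ± 0.33 missed the threshold (limma, adjusted p = 0.0661). HSPB1 passed with library totals alone (-1.40, adjusted p = 0.00967), with quantile normalization (-1.48, adjusted p = 0.0226) and with a floor of 10 FPKM (adjusted p = 0.00351), and was below 0 under all settings. It was smaller and did not pass with limma-voom on recovered reads (-0.96, adjusted p = 0.111). The treated MKN45 value rests on 168 reads.

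CRYAB, a second small heat shock protein, was at 0.968 FPKM in treated HGC27, against 2.18 FPKM in vehicle HGC27. In MKN45 it was listed at 0 in the treated library and at 0.0247 FPKM in the vehicle library. BAG3, which links HSP70 to small heat shock proteins and selective autophagy, was at 6.61 FPKM in treated HGC27, against 4.35 FPKM in vehicle HGC27, and at 10.3 FPKM in treated MKN45, against 11.0 FPKM in vehicle MKN45. Its fitted difference was 0.21 ± 0.30, and it was -0.04 with library totals alone.

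SERPINH1 differed most between the lines among measured members. It was at 71.3 FPKM in treated HGC27, against 49.1 FPKM in vehicle HGC27, and at 12.1 FPKM in treated MKN45, against 29.2 FPKM in vehicle MKN45. The treated library was the higher one in HGC27 and the lower one in MKN45. The differences were 0.53 and -1.21, with counting intervals of the log2 ratio of 0.50 to 0.58 and -1.35 to -1.20. With quantile normalization the difference in HGC27 was -0.07, and the one in MKN45 was below 0 under every scaling. No test of a difference between lines can be made with 1 library per line and treatment.

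The mitochondrial chaperones had fitted differences of 0.46 for HSPA9, the mitochondrial HSP70, 0.50 for HSPD1, the HSP60 barrel, and 0.57 for HSPE1, its lid, each ± 0.27 (limma, adjusted p = 0.278, 0.242 and 0.203). None passed, although the 3 estimates lay close together. HSPA9 was at 148 FPKM in treated HGC27, against 112 FPKM in vehicle HGC27, and at 94.6 FPKM in treated MKN45, against 65.8 FPKM in vehicle MKN45. HSPD1 was at 145 FPKM in treated HGC27, against 110 FPKM in vehicle HGC27, and at 177 FPKM in treated MKN45, against 115 FPKM in vehicle MKN45. HSPE1 was at 72.3 FPKM in treated HGC27, against 43.3 FPKM in vehicle HGC27, and at 129 FPKM in treated MKN45, against 96.9 FPKM in vehicle MKN45.

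All 3 were higher in the treated library of each line on the deposited scale, whereas with quantile normalization HSPA9 and HSPD1 were at -0.09 and -0.10 in HGC27. The share of reads from genes encoded in the mitochondrion was lower in the same libraries. With those genes left out and the totals rescaled, the fitted differences were 0.11 for HSPA9, 0.15 for HSPD1 and 0.21 for HSPE1. HSPD1 and HSPE1 are divergent neighbours whose gene models overlap on opposite strands of chromosome 2, and the HSPE1-MOB4 read-through model covers HSPE1. No strand setting is given, so shared reads cannot be told apart. The 18 pseudogenes named after HSPD1 held 1.28% as many reads as HSPD1, and the 26 named after HSPE1 2.33% as many reads as HSPE1.

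Of the heat shock factors, HSF1, the main stress-activated regulator, was at 2.75 FPKM in treated HGC27, against 3.02 FPKM in vehicle HGC27, and at 6.01 FPKM in treated MKN45, against 4.88 FPKM in vehicle MKN45. Its fitted difference was 0.07 ± 0.29, and -0.15 with library totals alone. HSF2, a partner factor with roles in development, was at 25.0 FPKM in treated HGC27, against 14.3 FPKM in vehicle HGC27, and at 15.8 FPKM in treated MKN45, against 6.29 FPKM in vehicle MKN45. HSF2 had a fitted difference of 0.98 ± 0.29 (limma, adjusted p = 0.0661). It was higher in both lines under every scaling tried, and passed with a pseudocount of 0.1 (adjusted p = 0.0480) and with a floor of 10 FPKM (adjusted p = 0.0104). The fitted difference was smaller and did not pass with quantile normalization or library totals alone (0.72 each), or with mitochondrially encoded genes left out (0.65). HSF1 is regulated mainly after translation, which these libraries do not measure.

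**Figure D3:**
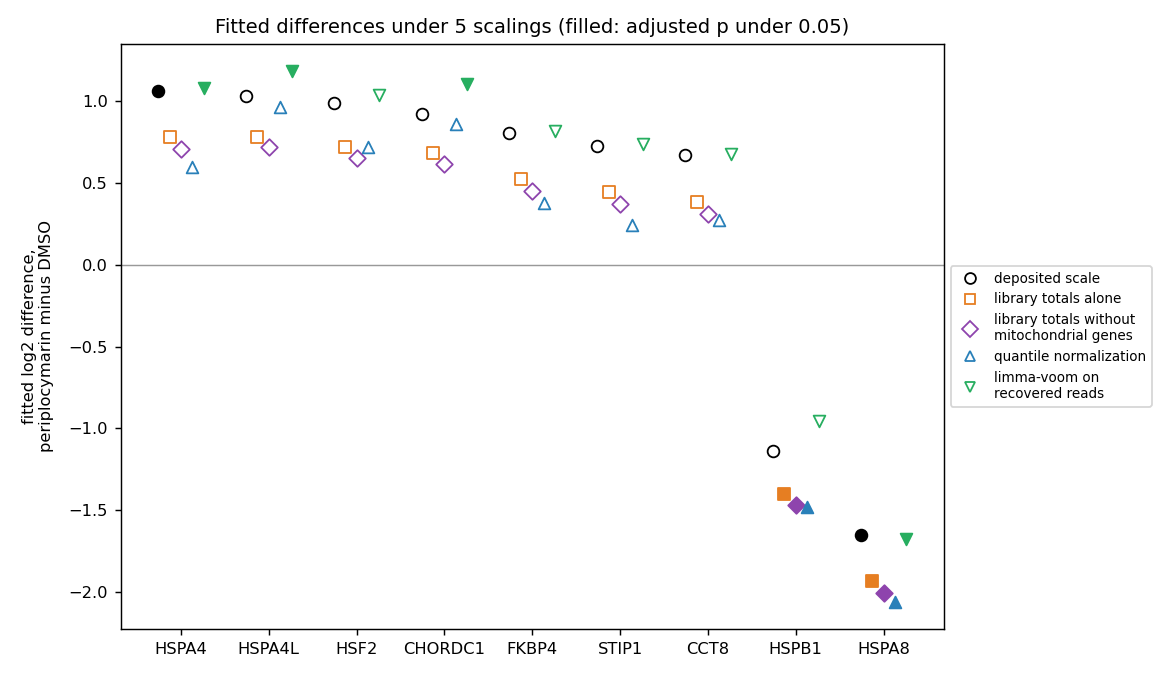
Fitted log2 differences over both lines, periplocymarin minus DMSO, for 9 members in columns under 5 scalings or models marked by shape, with filled symbols where the adjusted p was under 0.05. HSPA8 is filled under all 5 and HSPA4 under the deposited scale and limma-voom. HSPB1 is filled with library totals alone, with totals without mitochondrial genes and with quantile normalization. All 9 genes keep their sign under the 5.

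CCT is built from 8 subunits, TCP1 and CCT2 to CCT8, 1 of each per ring. None passed the test, and the fitted differences ran from -0.10 for CCT4 to 0.67 for CCT8, with 7 of 8 above 0 and a median of 0.43. In HGC27 the median difference was 0.41, with 7 of 8 subunits above 0. In MKN45 it was 0.46, with 6 of 8 above 0. These medians lie near those of all genes averaging 10 FPKM or more, 0.48 and 0.35. With quantile normalization TCP1, CCT2, CCT3, CCT4, CCT6A and CCT7 were all below 0 in HGC27, so the direction there changes with the scaling.

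CCT8 had the largest fitted difference, 0.67 ± 0.26 (limma, adjusted p = 0.135). It was at 166 FPKM in treated HGC27, against 109 FPKM in vehicle HGC27, and at 186 FPKM in treated MKN45, against 111 FPKM in vehicle MKN45. CCT5 was at 158 FPKM in treated HGC27, against 103 FPKM in vehicle HGC27, and at 258 FPKM in treated MKN45, against 180.0 FPKM in vehicle MKN45. CCT8 and CCT5 were thus both higher in the treated library of each line. Under the other scalings they stayed above 0 but shrank, with quantile normalization to fitted differences of 0.27 and 0.22 and to 0.072 and 0.094 in HGC27. CCT4 was the exception, at 162 FPKM in treated HGC27, against 173 FPKM in vehicle HGC27, and at 125 FPKM in treated MKN45, against 134 FPKM in vehicle MKN45. CCT3 was at 127 FPKM in treated HGC27, against 98.2 FPKM in vehicle HGC27, and at 77.7 FPKM in treated MKN45, against 77.9 FPKM in vehicle MKN45.

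Messenger RNA levels of the subunits were not equal within a library, although the complex holds them in equal number. The highest subunit was 4.07-fold above the lowest in treated HGC27 and 3.89-fold in vehicle HGC27, and 3.32-fold in treated MKN45 and 3.20-fold in vehicle MKN45. In HGC27 the highest was CCT7 in the treated library and CCT4 in the vehicle library, and the lowest CCT2 and TCP1. In MKN45 CCT5 was the highest in both libraries, and CCT3 in the treated and TCP1 in the vehicle library the lowest. FPKM here rest on 1 annotated length per gene, which may include exons that these cells do not use. The 8 subunits made up 32.7% of the members' summed FPKM in treated and 28.9% in vehicle HGC27, and 38.7% in treated and 34.7% in vehicle MKN45.

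**Figure D4:**
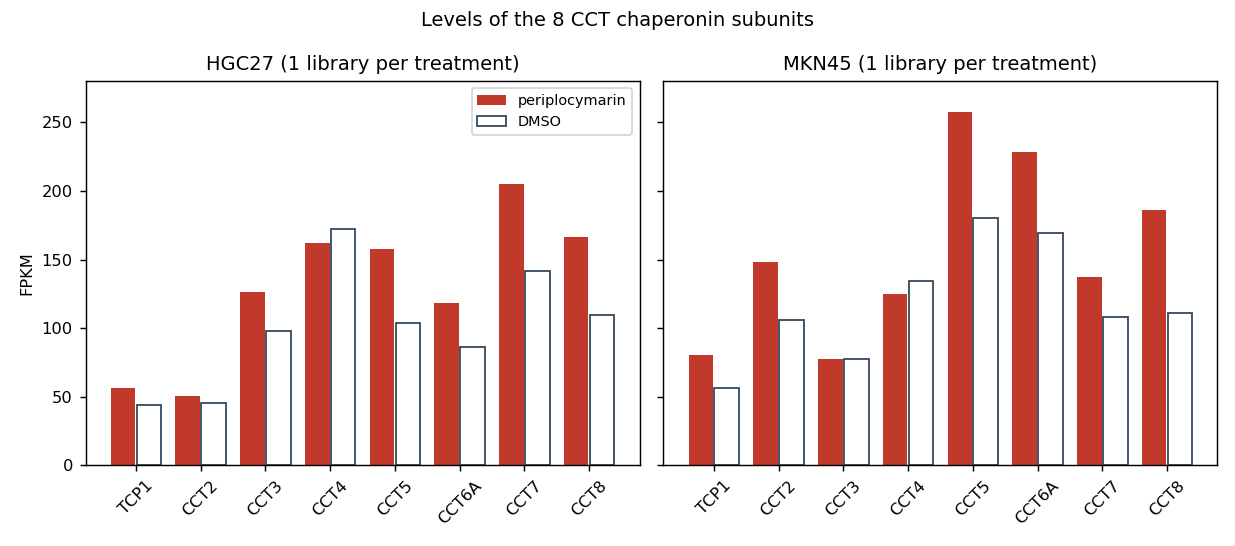
FPKM of the 8 CCT subunits in HGC27 (left) and MKN45 (right), red bars for the periplocymarin library and white bars for the DMSO library, 1 library each. CCT4 is lower in the treated library of both lines and CCT8 higher in both, and with quantile normalization CCT8 stays above 0 and CCT4 below 0 in each line. CCT2 is at 50.3 and 45.3 FPKM in HGC27, against 148 and 106 FPKM in MKN45.

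Other chaperone genes were counted from lists of related families, 92 of 106 genes being tested. Of these 10 rose and 2 fell, against 3.49% and 3.29% of all tested genes. Of the 4454 genes averaging 10 FPKM or more, 363 rose and 84 fell. The lists' median fitted difference was 0.24, against 0.06 over all genes and 0.38 over those abundant ones. Quantile normalization left 1 that rose and 2 that fell, and library totals alone gave 9 and 6. Over all genes these settings gave 182 and 350 of 12367 and 350 and 1107 of 12462. Prefoldin delivers new actin and tubulin to CCT. Of 17 tested prefoldin subunits and CCT or tubulin cofactors, 4 rose and none fell, against the same 3.49% and 3.29%, and all 4 are prefoldin subunits: PFDN5 by 1.38 ± 0.31, PFDN2 by 1.31 ± 0.26, VBP1 by 1.28 ± 0.27 and PFDN4 by 1.14 ± 0.28 (limma, adjusted p = 0.0365, 0.0283, 0.0318 and 0.0447). PFDN2 was at 177 FPKM in treated HGC27, against 71.2 FPKM in vehicle HGC27, and at 144 FPKM in treated MKN45, against 57.1 FPKM in vehicle MKN45. The remaining subunits, PFDN1 and PFDN6, had fitted differences of 0.53 and 0.62 and did not pass. With quantile normalization none of the 17 passed, and PFDN5, PFDN2, VBP1 and PFDN4 were still above 0, from 0.80 to 1.02.

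Of 30 further DNAJ genes 5 rose and 2 fell, again against 3.49% and 3.29% of all genes. The 4 with the largest fitted differences were DNAJC8, a spliceosome-associated protein, at 1.41 ± 0.28, DNAJC30, a mitochondrial protein, at -1.40 ± 0.29, DNAJC25 at 1.31 ± 0.29 and DNAJC14 at -1.22 ± 0.30 (limma, adjusted p = 0.0262, 0.0308, 0.0362 and 0.0452). DNAJC8 was at 56.9 FPKM in treated HGC27, against 18.7 FPKM in vehicle HGC27, and at 49.3 FPKM in treated MKN45, against 19.9 FPKM in vehicle MKN45. With quantile normalization DNAJC25 alone rose of the 30, and DNAJC14 and DNAJC30 fell. DNAJC25 shares exons with a read-through gene and is uncertain. HSPA14, a ribosome-associated HSP70, rose by 1.31 ± 0.28 (limma, adjusted p = 0.0318), at 35.4 FPKM in treated HGC27, against 12.3 FPKM in vehicle HGC27, and at 30.1 FPKM in treated MKN45, against 12.8 FPKM in vehicle MKN45. With quantile normalization HSPA14 was at 0.97 and did not pass.

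None of 8 exchange factors and partners of HSP70, 12 other HSP90 cochaperones, 11 mitochondrial chaperones and proteases or 11 other HSF1 targets and HSF regulators passed the limma test. Some passed under other settings: JMJD6, at 1.30 (adjusted p = 0.0508), rose in 4 of them, GRPEL1, at 1.11 (adjusted p = 0.0559), rose in 3, and AHSA2P and HSF4, at -1.0003 and -1.03 (adjusted p = 0.0731 and 0.0744), fell in 3 each. These 4 are named after their values were seen. Medians of the fitted differences were 0.34, 0.28, 0.20 and 0.10. HSPB8, the other small heat shock gene high enough to be tested and named after its values were seen, was at 13.4 FPKM in treated HGC27, against 4.09 FPKM in vehicle HGC27, and at 0 and 0.0227 FPKM in treated and vehicle MKN45.

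Between the vehicle libraries 6 of the 37 members were at least 4-fold apart (16.2%), against 23.6% of the 14290 genes at 1 FPKM or more in at least 1 of them. At 10 FPKM or more it was 2 of 30 members, against 17.2% of 5103 genes. Neither share of members exceeds that of all genes. HSPB1 was at 113 FPKM in vehicle HGC27 and 16.6 FPKM in vehicle MKN45, DNAJB4 at 7.996 and 1.495 FPKM, and CRYAB at 2.18 and 0.0247 FPKM. HSPA1A was at 0.413 FPKM in vehicle HGC27 and 7.13 FPKM in vehicle MKN45, HSPA1B at 0.493 and 2.88 FPKM, and CHORDC1 at 2.42 and 11.5 FPKM. The lines therefore split by gene, with 3 of the 6 higher in HGC27 and 3 in MKN45. These are levels of 1 library per line with no test. In treated libraries the gap between lines was wider for HSPB1, at 76.3 FPKM in HGC27 and 4.34 FPKM in MKN45, and narrower for HSPA1A, at 1.11 and 3.51 FPKM.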

How the data were processed

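The authors deposited FPKM values for 62710 Ensembl genes in 1 table, with a column for each of the 4 libraries, and sample titles gave the groups. No header names the unit, which was read from the values. The submitters' processing notes list fastp 2.0, HISAT2 2.1.0 and hg38. Not given in the sources used here are the gene counter, its annotation and its strand setting. Library sizes implied by the deposited FPKM were 0.861 to 1.20 times the recovered reads, so they carry a composition factor. A table of gene names matched 62639 IDs.

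Whole reads, recovered from the steps between low values, gave depth, counting intervals and the input of limma-voom. All 20299 genes above 0 in 3 or more libraries came out whole (tolerance 0.0001 reads), at GENCODE 29 or searched lengths.

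Because the file holds FPKM, the test was limma 3.58.1 in R 4.3.3 (lmFit, eBayes with trend) on log2(FPKM + 1), with treatment and cell line as terms. The pairing follows from the shared cell line. A gene was tested where its mean over the 4 libraries was 1 FPKM or more and 10 recovered reads or more. The code was tested on simulated data. Members and lists were chosen with earlier results of these data known. All 37 members are named. The rule asked for values in every library for members past the test or 2-fold changed in a line, and for at most 4 genes a list past the test, by size. Values of some further members were added. Promoter sequences are RefSeq, GRCh38.p14, from 250 bases upstream of a start. Alternatives changed the scaling, filters, pseudocount and model.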

Additional observations from a re-analysis of the deposited data

Results flagged for a closer look

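Among members measured in both lines, 4 moved in opposite directions, with counting intervals of the log2 ratio clear of 0 in each line. The share of all genes under this rule is not given here, so the number describes the members alone. Whatever the intervals, signs were opposite for 10 of 36 tested members, and 3807 of all 12374 tested genes did not share a sign. For SERPINH1 the treated minus vehicle difference was 0.53 in HGC27 and -1.21 in MKN45, a gap of 1.74. For HSP90AA1 it was -0.39 and 0.24, a gap of -0.63, for HSP90AB1 -0.14 and 0.23, a gap of -0.37, and for PTGES3 0.50 and -0.11, a gap of 0.60. The difference between lines was not tested, because each line has 1 library per treatment, and counting intervals leave out the spread between cultures. The opposite signs were not kept with mitochondrially encoded genes left out for HSP90AA1 and HSP90AB1 (-0.07 and -0.09 in MKN45), nor with quantile normalization for PTGES3 and SERPINH1 (-0.05 and -0.07 in HGC27).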

How the results depend on the processing

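Under the 3 other scalings HSPA8 stayed past the threshold and HSPB1 and HSPA4 kept their direction, and HSPA4 missed the threshold in each. With quantile normalization 0 members rose and 2 fell (HSPA8 and HSPB1), over all genes 182 and 350. With library totals alone 0 rose and 2 fell (all genes 350 and 1107), and with mitochondrially encoded genes left out 0 rose and 2 fell (266 and 1243). A pseudocount of 0.1 gave 3 and 2 (755 and 734), a floor of 10 FPKM 3 and 2 (1049 and 199 of 4454), and limma-voom on recovered reads 3 and 1 (849 and 663). With no low-value filter, or with no replicate block (cell line left out of the model), limma called 0 and 0 members, and 9 and 3 members had an unadjusted p under 0.05. Numbers of genes tested and the variance taken from other genes change with the filter.

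Fitted differences of opposite sign were, with quantile normalization, HSPA1A 0.032, DNAJA2 -0.24, HSP90AB1 -0.12, AHSA1 -0.25, CACYBP -0.038, CDC37 -0.30, PTGES3 -0.22, TCP1 -0.048, CCT2 -0.12 and CCT3 -0.29. With library totals alone they were DNAJA2 -0.12, HSP90AB1 -0.24, AHSA1 -0.068, CDC37 -0.088, PTGES3 -0.091, BAG3 -0.039, HSF1 -0.15 and CCT3 -0.10. With mitochondrially encoded genes left out they were HSPA1B -0.026, DNAJA2 -0.19, HSP90AB1 -0.32, AHSA1 -0.14, CDC37 -0.16, PTGES3 -0.16, BAG3 -0.10, HSF1 -0.21, CCT2 -0.039 and CCT3 -0.18. HSPA1A was at 0.12 with a pseudocount of 0.1.

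Members 2-fold higher in HGC27 numbered 1 with quantile normalization (HSPA1B, at 1.05) and 0 with library totals or without mitochondrially encoded genes. HSPA4, DNAJA1 and FKBP4 were at 0.52, 0.47 and 0.63 there with quantile normalization, short of 2-fold. Members 2-fold lower in HGC27 numbered 2 with quantile normalization or the pseudocount. In MKN45 those 2-fold higher were 2 with quantile normalization and 1 with library totals or without mitochondrially encoded genes. HSPA8, DNAJB1, HSPB1 and SERPINH1 stayed 2-fold lower in MKN45 under each of these scalings. HSPA1A was also 2-fold lower there with library totals (-1.03) and without mitochondrially encoded genes (-1.11). Shares of all genes under these scalings are not given here, so the numbers describe the members alone. The members' median was -0.064, 0.13 and 0.059 in HGC27 and 0.046, 0.011 and -0.075 in MKN45 (quantile, totals, mitochondrially encoded genes left out). Over all measured genes the median was, in the same order, 0.052, -0.20 and -0.24 in HGC27 and 0.039, -0.12 and -0.20 in MKN45. Leaving out 1 line leaves the difference in the other, with no test. The causes were not tested. CRYAB was left out of the test by its low level, a mean under 1 FPKM over the 4 libraries. Few reads limit HSPA1A and HSPA1B, on 32 to 88 reads in HGC27.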
